A study of Homo sapiens with 2 samples.

Results

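The genes described here are 37 that encode enzymes of purine and pyrimidine nucleotide synthesis, salvage and deoxynucleotide production, chosen by name. All 37 were found among the 57169 genes, counted by symbol, of a poly(A)-selected RNA-seq table from A2780, an established line derived from a human ovarian carcinoma. The table holds 1 library labelled shControl, given a WT genotype and described as carrying an empty vector, and 1 labelled shJAM3, with stable knockdown of JAM3, a junctional adhesion molecule. The design text writes siRNA where the titles carry the prefix sh, and neither gives the construct. Both cultures were taken in logarithmic growth, and neither had a second culture or library, so no difference below has a replicate check and no p-value is given.

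Nucleotides are made from ribose phosphate activated as PRPP. Purines are built on PRPP ring atom by ring atom to IMP, which is then split into AMP and GMP, whereas the pyrimidine ring is closed before PRPP is attached to give UMP and then CTP. Salvage enzymes return free bases and nucleosides to the pool, and ribonucleotide reductase turns ribonucleoside diphosphates into the deoxynucleotides needed for DNA. Dividing tumour cells such as A2780 draw on all of these routes, and several of the enzymes are targets of chemotherapy.

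Levels are given as deposited FPKM (fragments scaled to gene length and library size), which can be compared between genes. Ratios are shJAM3 over shControl, with a 95% interval in brackets that comes from the recovered fragment numbers. Log2 ratios were taken on log2(FPKM + 1), so differences of weakly expressed genes are understated. The intervals cover counting error only, and PCR copies and the spread between cultures are outside them. A gene was counted as measured at a mean of at least 1 FPKM, which held for 36 of the 37 members and 12214 genes in all. The exception was ADSL.

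The libraries held 15570262 fragments (shControl) and 16455079 (shJAM3). JAM3 itself had 18 and 14 fragments, a ratio of 0.716 (0.330 to 1.52). The interval includes 1, and its lower bound of 0.330 lies above what a reduction of more than 70%, the size the design text gives from qRT-PCR and Western blot, would leave. The libraries are therefore called by their labels, and shJAM3 below means the library labelled so. The keratins KRT7, KRT8 and KRT18 and mesothelin (MSLN) stood between 93.4 and 197.5 FPKM, while the epithelial markers EPCAM, CDH1 and KRT19 and the ovarian carcinoma marker WT1 were below 1 FPKM in both libraries. KRT7 (ratio 0.666) and MSLN (0.641) were lower in shJAM3, and PAX8 (1.12 and 0.527 FPKM) and MUC16 (0.475 and 1.07 FPKM) were near 1 FPKM. Of 13 markers of blood, endothelial, fibroblast, muscle and liver cells 11 were below 1 FPKM in both and 4 had no fragment (PTPRC, COL1A2, HBB, ALB). Their summed level was 17.7 FPKM in shControl and 14.8 in shJAM3, most of it COL1A1 and PDGFRB. Their part in the results was not tested.

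Stretches of 26 bases around the E box CACGTG are shown first, because 6 members carry this motif in the promoter. Promoters of 34 members were matched in RefSeq (GRCh38.p14), each running from 250 bases before the start to 50 after it. The motif is bound by MYC and related factors, which are known regulators of nucleotide synthesis genes. Capitals mark the motif, which reads the same on both strands, and each stretch is given 5′ to 3′ on the strand of its gene. PPAT: chr4:56435782-56435807, minus strand. ATIC: chr2:215312003-215312028 and chr2:215312078-215312103, plus strand. DHODH: chr16:72008575-72008600, plus strand. DCK: chr4:70993523-70993548, plus strand. NME1: chr17:51153583-51153608, plus strand. NUDT1: chr7:2249202-2249227, plus strand.
PPAT: cggagatttcCACGTGcagcaaatac
ATIC: gccggcgggcCACGTGataagcccgg
ATIC: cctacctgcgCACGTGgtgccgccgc
DHODH: cgctactgcgCACGTGcacccaacca
DCK: ccccggccttCACGTGacctggcgtg
NME1: tgctgcgaacCACGTGggtcccgggc
NUDT1: aggcccaggcCACGTGtcccgtgtgg

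The E box was present in 6 of 34 member promoters (17.6%) and in 2030 of 27305 promoters of the same length (7.43%). The 27305 include promoters of genes not measured here, and the share among measured genes alone was not determined. All 6 of these genes had ratios above 1, with log2 ratios from 0.12 (NUDT1) to 0.49 (NME1) and a median of 0.24. The interval of NUDT1 (0.979 to 1.21) included 1. After GC centring (below) PPAT stood at -0.004 and the others between 0.15 (DCK) and 0.42 (NME1). The boxes of ATIC, DCK and NUDT1 lie within the deposited spans of these genes, which begin upstream of the RefSeq starts. The deposited start of NUDT1 is 2242222. Of the 28 measured members with a promoter but no E box 22 were above 1, with a median of 0.18. PAICS is counted among these 28, although the E box of PPAT lies past the deposited start of PAICS. A match is a description of the sequence and shows no binding.

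The members were on the whole abundant, with a median level of 20.5 FPKM over both libraries against 7.87 for measured protein-coding genes. A mean of at least 50 FPKM was reached by 6 (PRPS1, IMPDH1, IMPDH2, APRT, RRM1 and TK1), and 7 stayed below 5 FPKM (ADSL, DHODH, CTPS2, RRM2B, TK2, SAMHD1 and NME2). Most members were higher in shJAM3, by small amounts. Of the 36 measured members 30 had a ratio above 1 and 6 below, with a median log2 ratio of 0.19, against 0.00 for all measured genes. All members together took 0.371% of the fragments in shControl (exact binomial interval 0.368% to 0.374%) and 0.451% in shJAM3 (0.447% to 0.454%). Without RRM2 the shares were 0.370% and 0.445%. Only RRM2 was at least 2-fold higher (1.3% of all measured genes were), and no member was at least 2-fold lower (2.1%). At the smaller size of log2 0.5, 6 members were higher (PRPS1, PAICS, ADSS, HPRT1, RRM1 and RRM2), against 10.5% of measured genes, and AK1 was lower, against 12.9%. After GC centring (below) 4 were higher by this size, as PAICS (0.35), ADSS (0.35) and RRM1 (0.40) no longer passed and APRT (0.54) did. The interval lay above 1 for 24 members, where 33.0% of measured genes did so, and below 1 for 5 (CAD, TK1, TK2, NME2 and AK1), where 33.6% did. Among the 10499 measured protein-coding genes alone, 0.391% were at least 2-fold higher and 1.41% lower. At log2 0.5 these shares were 8.35% and 12.4%, and beyond counting error 34.5% and 36.8%. In bulk RNA, a different share of cells in S phase and a different amount of RNA per cell cannot be told apart.

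**Figure D1:**
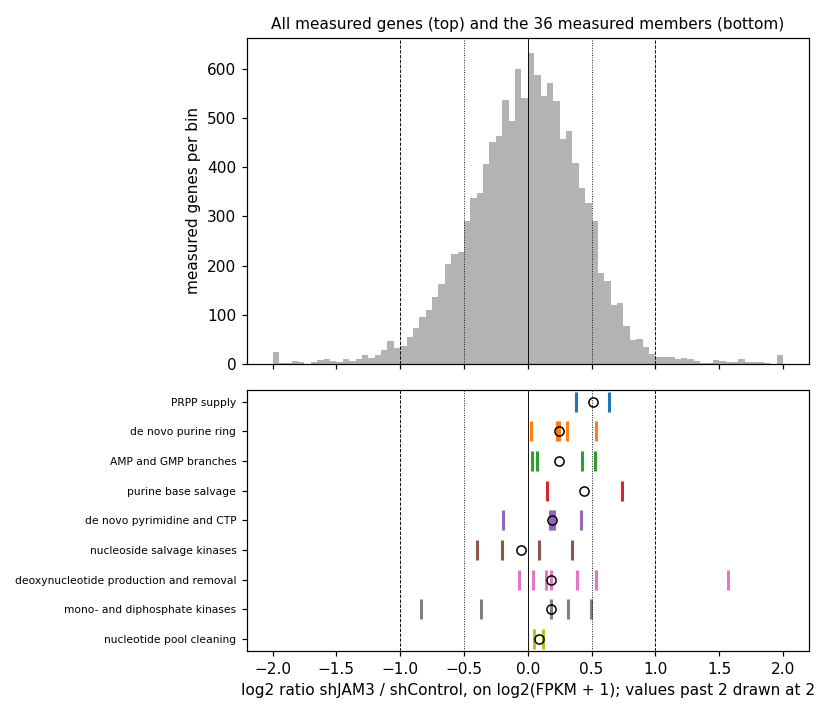
Log2 ratio of shJAM3 to shControl on log2(FPKM + 1) for the 12214 measured genes (grey histogram, top) and the 36 measured members by pathway step (bars, bottom; open circles mark the median of each step). Dotted lines stand at 0.5 and dashed lines at 1 in either direction; most members sit to the right of 0, RRM2 alone beyond the dashed line at 1, and the nucleoside salvage kinases on both sides.

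By route, the measured purine enzymes all lay on one side in the deposited FPKM, though not all beyond counting error. All 11 measured purine members (ring synthesis, AMP and GMP branches, base salvage) had ratios above 1, with log2 ratios from 0.03 to 0.74 and a median of 0.24. The interval lay above 1 for 9 of them and included 1 for PFAS and IMPDH1. After GC centring (below) PPAT stood at -0.004 and GMPS at -0.12. ADSL, which was not measured, had a ratio of 0.719. Of 6 pyrimidine members (de novo synthesis, CTP synthases and UCK2) 5 were above 1, with a median of 0.18. The 10 deoxynucleotide members, salvage kinases included, were the most spread, from -0.40 (TK1) to 1.57 (RRM2), with 7 above 1 and a median of 0.16. With 1 library per group, whether the routes differ was not tested.

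PRPP, the shared precursor, is made by the synthetases PRPS1 and PRPS2. PRPS1 (chromosome X, 107628424 to 107651026, GRCh38) was at 46.0 FPKM in shControl against 72.1 in shJAM3 (ratio 1.57, 1.48 to 1.66). PRPS2 stood at 30.8 and 40.4 FPKM (ratio 1.31, 1.22 to 1.41). PRPS1 thus stood 1.49 times as high as PRPS2 in shControl and 1.79 times as high in shJAM3, and the ratio between these balances was 1.195 (1.09 to 1.31).

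The committed step of purine ring synthesis is carried out by PPAT, the amidotransferase that takes PRPP. It was at 8.22 FPKM in shControl against 9.83 in shJAM3 (ratio 1.196, 1.08 to 1.32), the lowest of the 5 measured ring enzymes in both libraries. GART, which carries 3 activities of the early pathway on a single protein, was at 26.0 and 32.4 FPKM (ratio 1.25, 1.19 to 1.31). PFAS, the next enzyme, was at 16.7 and 17.0 FPKM, and its interval of 0.954 to 1.09 included 1. PAICS, a carboxylase and synthetase in the middle of the ring pathway, had the largest ratio of the ring enzymes, 1.46 (1.41 to 1.52), at 34.1 and 49.9 FPKM. ATIC, which closes the ring to IMP, was at 32.6 and 38.8 FPKM (ratio 1.19, 1.12 to 1.26). In the deposited FPKM, the 4 ring enzymes other than PFAS were therefore higher beyond counting error. After GC centring (below) PFAS did not stand apart, at a log2 ratio of 0.24. ATIC stood at 0.24, GART at 0.23, PAICS at 0.35 and PPAT at -0.004. ADSL, the lyase that acts once in the ring pathway and again on the way to AMP, had only 41 and 32 fragments (0.375 and 0.270 FPKM, ratio 0.719, 0.438 to 1.17). Its annotation is described below.

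PPAT and PAICS start head to head on chromosome 4. The stretch of 125 bases between the deposited starts of PPAT (minus strand, 56435615) and PAICS (plus strand, 56435741) is printed because both genes can use it as a promoter. It is given 5′ to 3′ on the PPAT strand, chr4:56435616-56435740, GRCh38.p14, all in lower case because it holds no match to CACGTG, to TTTGGCGC or TTTCGCGC, or to CCAAT on either strand. The E box shown above for PPAT (chr4:56435782-56435807) lies outside this stretch, past the deposited start of PAICS.
PPAT to PAICS: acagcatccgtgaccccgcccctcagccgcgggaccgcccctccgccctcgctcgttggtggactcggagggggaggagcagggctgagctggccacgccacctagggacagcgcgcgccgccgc
Although they share this stretch, PAICS stood 4.15 times as high as PPAT in shControl and 5.07 times as high in shJAM3. The ratio between these balances was 1.22 (1.10 to 1.36). In the deposited FPKM both genes were higher in shJAM3, PAICS by more than PPAT. After GC centring (below) only PAICS stood above 0, at 0.35, with PPAT at -0.004.

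IMP is directed to GMP by the IMP dehydrogenases and to AMP by adenylosuccinate synthase. IMPDH2, the isoform known to be raised in proliferating cells, was the most abundant member in shJAM3, at 103.9 FPKM in shControl against 139.7 in shJAM3 (ratio 1.34, 1.29 to 1.40). Its paralogue IMPDH1 was at 57.3 and 58.6 FPKM, with an interval of 0.974 to 1.07 that included 1. The balance of IMPDH2 to IMPDH1 went from 1.81 to 2.38, a ratio of 1.32 (1.24 to 1.40). With GC centring, explained below, their log2 ratios were close, 0.47 for IMPDH2 and 0.42 for IMPDH1. GMPS, which aminates XMP to GMP, was at 26.2 and 27.6 FPKM (ratio 1.05, 1.01 to 1.10). ADSS, the AMP-side synthase, was at 7.78 and 11.7 FPKM (ratio 1.499, 1.33 to 1.69). In the deposited FPKM, ADSS and IMPDH2 were well above 1 and IMPDH1 and GMPS close to it; after GC centring only GMPS of these 4 was not above 0, at -0.12, and ADSS stood at 0.35.

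Purine bases are salvaged by 2 phosphoribosyltransferases that also consume PRPP. HPRT1, which salvages hypoxanthine and guanine, was at 29.8 FPKM in shControl against 50.3 in shJAM3. Its ratio of 1.69 (1.54 to 1.85) was the second largest of all members. APRT, which salvages adenine, was at 65.8 and 73.3 FPKM (ratio 1.11, 1.05 to 1.19). HPRT1 stood at 0.453 of the APRT level in shControl and 0.687 in shJAM3, but their GC-centred log2 ratios were 0.55 and 0.54.

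**Figure D2:**
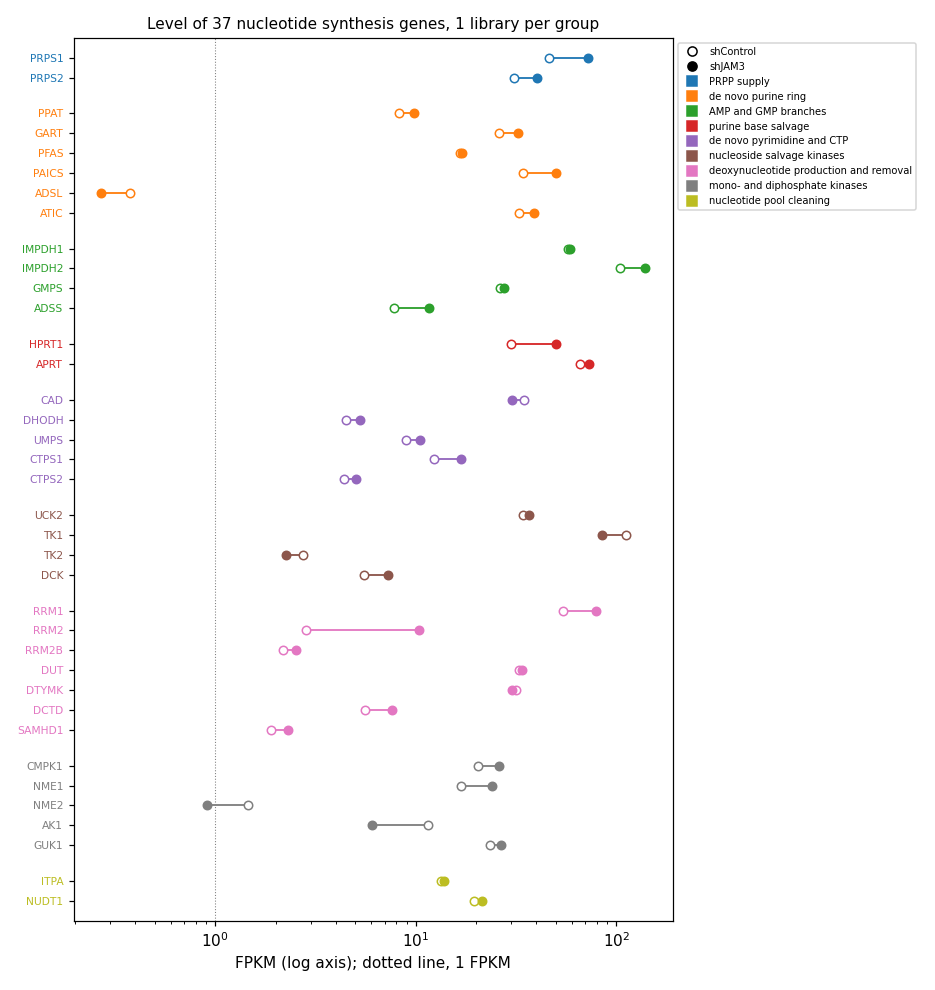
FPKM of the 37 members (log axis) in shControl (open circles) and shJAM3 (filled circles), joined by a line and grouped by pathway step in colour. Filled circles lie to the right for most genes, and the longest line is that of RRM2, from 2.84 to 10.4 FPKM; TK1, CAD, AK1, NME2, TK2, DTYMK and ADSL run the other way.

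Pyrimidine ring synthesis begins with CAD, a single protein with the first 3 activities. CAD was slightly lower in shJAM3, at 34.6 FPKM in shControl against 30.1 in shJAM3 (ratio 0.869, 0.833 to 0.906). DHODH, the mitochondrial dehydrogenase that follows it, was at 4.50 and 5.28 FPKM (ratio 1.18, 1.04 to 1.33). UMPS, which forms UMP, was at 8.98 and 10.5 FPKM (ratio 1.17, 1.08 to 1.27). CAD therefore lay below 1 and the 2 enzymes after it slightly above. CTPS1, the CTP synthase required by proliferating lymphocytes, was at 12.3 and 16.8 FPKM (ratio 1.36, 1.29 to 1.44), and CTPS2 was at 4.38 and 5.06 FPKM (ratio 1.15, 1.01 to 1.33). UCK2, the kinase that salvages uridine and cytidine, was at 34.4 and 36.7 FPKM (ratio 1.07, 1.02 to 1.11).

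Ribonucleotide reductase joins the catalytic subunit RRM1 to a small subunit, either RRM2, which is made in S phase, or the p53-inducible RRM2B. RRM1 was at 54.2 FPKM in shControl against 79.0 in shJAM3 (ratio 1.46, 1.40 to 1.52). RRM2 (chromosome 2, 10120698 to 10131419) had 232 and 921 fragments, 2.84 and 10.4 FPKM, and the largest ratio of the members, 3.66 (3.16 to 4.24). RRM2B was at 2.18 and 2.52 FPKM (ratio 1.15, 0.947 to 1.41), an interval that included 1. The ratio of RRM2 was 3.17 times that of RRM2B (2.47 to 4.06). Most coding bases of RRM2 lie under another gene (described below), so its level is not set against those of the other subunits, and only ratios between libraries are compared. Both subunits of the S phase enzyme were higher in shJAM3, the small one by more.

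The RefSeq promoter window of RRM2 holds 3 CCAAT boxes, the motif of the factor NF-Y, a known activator of S phase genes. They are shown with 10 bases either side because RRM2 is the member with the largest ratio; capitals mark the box. On the plus strand of chromosome 2 (GRCh38.p14) they lie at chr2:10122606-10122630, chr2:10122636-10122660 and chr2:10122663-10122687, beginning 123, 93 and 66 bases before the RefSeq start. The deposited gene begins further upstream than the RefSeq start, so the boxes lie within its span.
RRM2 CCAAT 1: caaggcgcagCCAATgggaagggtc
RRM2 CCAAT 2: catggcacagCCAATgggaagggcc
RRM2 CCAAT 3: ggcaccaaagCCAATgggaagggcc
CCAAT on either strand was present in 11 of 34 member promoters (32.4%) and in 35.7% of all 27305. The E2F motifs TTTGGCGC and TTTCGCGC were found in 1 member promoter, that of DCK (2.94%), and in 1.18% of all. The share with CCAAT was thus close to that of promoters in general.

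The other enzymes of the deoxynucleotide pool differed less. DCTD, which deaminates dCMP towards dTMP, was at 5.58 FPKM in shControl against 7.58 in shJAM3 (ratio 1.36, 1.17 to 1.58). DUT, which removes dUTP, was at 32.7 and 33.8 FPKM, and DTYMK, the thymidylate kinase, at 31.7 and 30.2 FPKM. The intervals of DUT (0.969 to 1.10) and DTYMK (0.879 to 1.03) included 1. SAMHD1, which degrades dNTPs, was low, at 1.91 and 2.30 FPKM (ratio 1.21, 1.04 to 1.40).

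Deoxynucleoside salvage went both ways. TK1, the cytosolic thymidine kinase of S phase, was the most abundant member in shControl, at 111.8 FPKM, and stood at 84.4 in shJAM3 (ratio 0.755, 0.717 to 0.795). After GC centring its log2 ratio was -0.02. TK2, the mitochondrial thymidine kinase, was at 2.74 and 2.26 FPKM (ratio 0.823, 0.696 to 0.974). DCK, which activates deoxycytidine and drugs such as gemcitabine and cytarabine, was at 5.53 and 7.28 FPKM (ratio 1.32, 1.13 to 1.54).

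Among the kinases that raise mono- and diphosphates, CMPK1 (UMP and CMP kinase) was at 20.5 FPKM in shControl against 25.9 in shJAM3 (ratio 1.26, 1.17 to 1.36). GUK1, the guanylate kinase, was at 23.4 and 26.7 FPKM (ratio 1.14, 1.07 to 1.22). AK1, an adenylate kinase on chromosome 9 (127866480 to 127877743), was the lowest of the members by ratio, 0.523 (0.448 to 0.608), at 11.6 and 6.05 FPKM. The nucleoside diphosphate kinase NME1 was at 16.8 and 24.0 FPKM (ratio 1.43, 1.31 to 1.56), whereas NME2 had 59 and 40 fragments, 1.46 and 0.911 FPKM (ratio 0.624, 0.407 to 0.949). GC centring (below) took the log2 ratio of NME2 from -0.36 to -0.06 and that of NME1 from 0.49 to 0.42. ITPA and NUDT1, which remove deaminated and oxidised nucleotides, were at 13.4 and 13.9 FPKM and at 19.6 and 21.4 FPKM. Both intervals included 1 (0.909 to 1.19 for ITPA and 0.979 to 1.21 for NUDT1).

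**Figure D3:**
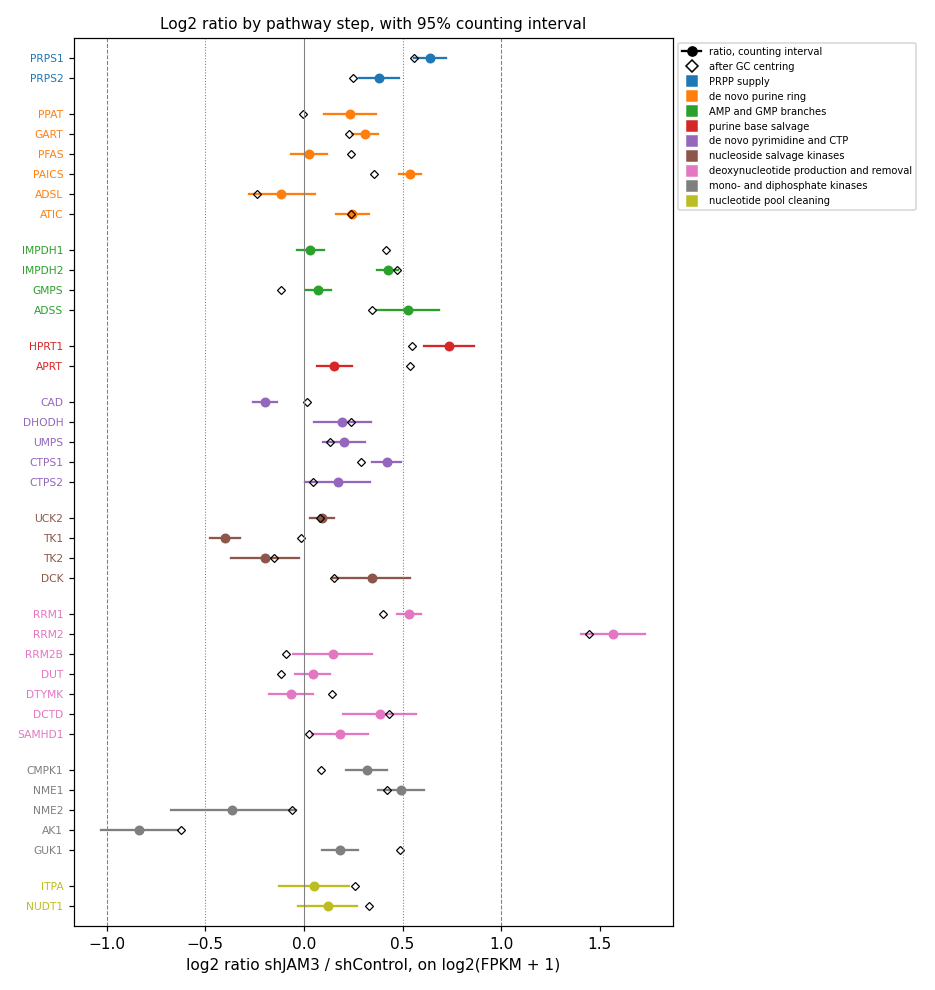
Log2 ratio of shJAM3 to shControl on log2(FPKM + 1) for the 37 members by pathway step (filled circles) with 95% intervals for counting error only (lines), and the ratio after centring on genes of like GC content (open diamonds). RRM2 lies at 1.57 and AK1 at -0.83; the diamonds of TK1 and CAD lie near 0 and those of APRT, GUK1 and IMPDH1 well to the right of their circles.

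The log2 ratio followed transcript GC content in these libraries, among members as among other genes. Across 10496 measured protein-coding genes r was -0.50, and across the 36 measured members it was -0.50 (Spearman -0.56); genes are not independent replicates and all points share the same 2 libraries. All 13 members with a GC content below 45% had ratios above 1, with a median log2 ratio of 0.34, against 0.19 for 3730 protein-coding genes of that class. Of the 11 members at 55% or more 6 were above 1, with a median of 0.03, against -0.28 for 3390 genes. With every ratio centred on the median of its GC bin, the members' median was 0.24, with 28 above 0 and 8 below.

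GC centring altered which members stood out. TK1, with a GC content of 62.8%, went from -0.40 to -0.02, and CAD from -0.20 to 0.01. APRT went from 0.15 to 0.54, GUK1 from 0.18 to 0.49 and IMPDH1 from 0.03 to 0.42, all with a GC content above 60%. In the other direction PPAT went from 0.23 to 0.00 and GMPS from 0.07 to -0.12. The sign changed for 6 members (PPAT, GMPS, CAD, RRM2B, DUT and DTYMK). RRM2 stood at 1.44, HPRT1 at 0.55, PRPS1 at 0.56 and AK1 at -0.62 after centring. The purine members kept a median of 0.35, the pyrimidine members one of 0.11 and the deoxynucleotide members one of 0.08.

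**Figure D4:**
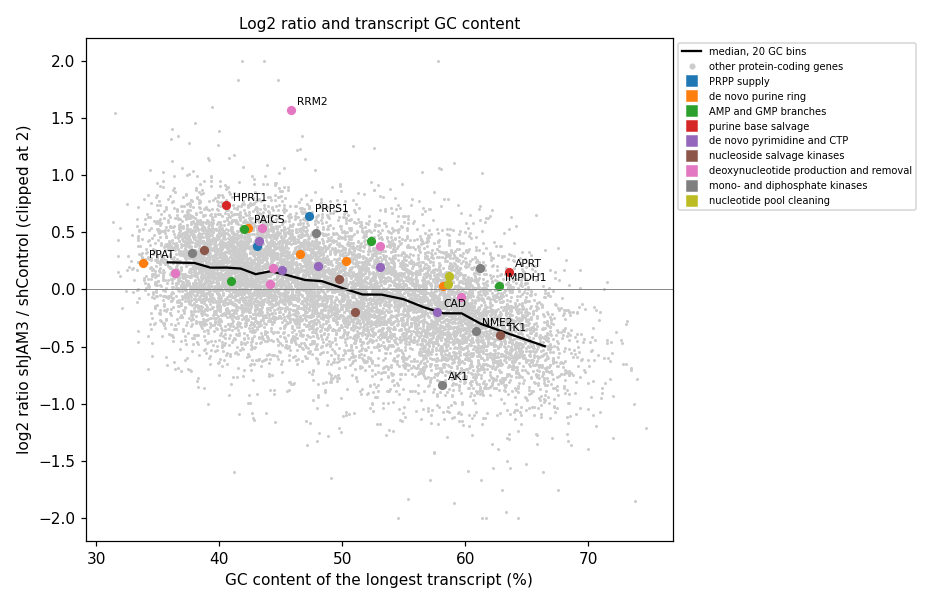
Log2 ratio of shJAM3 to shControl against GC content of the longest transcript for measured protein-coding genes (grey; line, median in 20 GC bins) and the 36 measured members (coloured by step). The line falls from 0.24 in the lowest to -0.50 in the highest GC bin; TK1 and CAD lie on it, RRM2 lies far above it and AK1 below.

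The members with the most extreme ratios were also among those whose exons lie under another annotated gene. In GENCODE 29, 22 members shared no exon base with another gene and 15 shared some. In 5 members at least 50% of the coding bases of the principal transcript lay in exons of a gene on the same strand: NME2 and AK1 (100% each), ADSL (89.9%), RRM2 (87.1%) and NME1 (74.8%). The overlapping genes are annotated as protein-coding: AC007240.1 for RRM2, AL022238.4 for ADSL, AL157935.2 for AK1 and the readthrough gene NME1-NME2 for both NME genes. Of all exon bases of these 5 members a smaller part was shared, from 18.6% (NME1) to 33.5% (AK1). They held few fragments of their own, 24 and 25 for AC007240.1, 1 and 3 for AL022238.4, 16 and 6 for AL157935.2 and 4 and 16 for NME1-NME2.

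The sources used here do not say how fragments in shared bases were assigned, so the levels of these 5 members cannot be set against those of the others. Of 1619 protein-coding genes with at least 50% of coding bases shared, here on either strand, 24.6% were measured, against 55.2% of the 18313 others. The protein-coding class also holds scarcely detected overlapping genes such as AL022238.4, so these shares do not show that sharing lowers a level, which was not tested. In sums chosen after seeing the data, RRM2 with AC007240.1 gave a ratio of 3.40 (2.96 to 3.92), and AK1 with AL157935.2 gave 0.517 (0.444 to 0.600). NME2 summed with NME1-NME2 gave 0.819 (0.561 to 1.19), an interval that included 1, where NME2 alone lay below 1. Fragments in the shared bases that were given to no gene are not in these sums. RRM2 and AK1 are among the 8 members that share 10% or more of all exon bases, so without these 8 no member was past 2-fold and none lower by log2 0.5. No strand-marking step is described, so fragments of DUT, TK2 and SAMHD1 that lie under genes on the other strand cannot be told apart from fragments of those genes either. Those genes held few fragments, at most 8 in shControl and 20 in shJAM3 (AC023355.1, over DUT). The same limit holds for smaller overlaps with well-expressed genes. SON shares 3.55% of the exon bases of GART and held 3204 and 3151 fragments. TMCO1 shares 3.18% of those of UCK2 and held 835 and 1097. On the same strand, MOB1B shares 6.17% of the exon bases and 25.5% of the coding bases of DCK. It held 215 and 310 fragments, against 274 and 392 for DCK, and the 2 genes summed gave a ratio of 1.32 (1.18 to 1.49). Of 35 pseudogenes named after 10 members 11 had a fragment, and the highest reached 6.11% of its parent's mean FPKM (NME2P1).

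**Figure D5:**
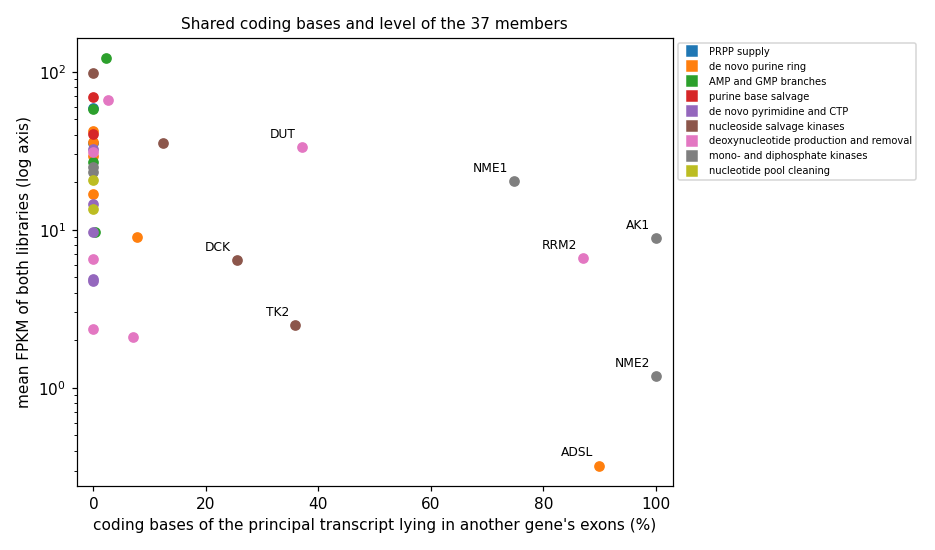
Mean FPKM of both libraries (log axis) against the percentage of coding bases of the principal transcript that lie in exons of another annotated gene, for the 37 members coloured by step. ADSL and NME2, the 2 lowest members, lie at 89.9% and 100%, with RRM2, AK1 and NME1 also at the right.

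Beyond the members, 44 of 64 other genes of nucleotide metabolism (further kinases, nucleotidases, catabolic enzymes and nucleoside transporters) were measured, with 27 above 1 and 17 below. Their median log2 ratio was 0.07, less than that of the members. By log2 0.5 or more 4 were higher and 4 lower, where 10.5% and 12.9% of all measured genes were. DCTPP1, which hydrolyses modified dCTP, was at 36.2 FPKM in shControl against 60.9 in shJAM3 (ratio 1.68), and shares 42.1% of its exon bases with a gene on the other strand. PNP, the purine nucleoside phosphorylase, was at 11.8 and 17.8 FPKM (ratio 1.51).

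Lower among them were CANT1, a calcium-activated nucleotidase, at 25.7 and 13.8 FPKM (ratio 0.539), and NUDT18 at 10.5 and 6.25 FPKM (ratio 0.596). The pyrimidine catabolic and salvage enzymes UPP1, uridine phosphorylase, and CDA, cytidine deaminase, had ratios of 0.654 and 0.685. CDA was the most abundant of these 4, at 176.1 FPKM in shControl against 120.6 in shJAM3. After GC centring the log2 ratios were -0.69 for CANT1, -0.28 for NUDT18, -0.62 for UPP1 and -0.39 for CDA. Those of DCTPP1 and PNP were 0.82 and 0.40. Of 36 measured S phase genes outside the members 23 were above 1 and 13 below, with a median of 0.20, close to the members' own. After GC centring the median was 0.15 for the S phase genes and 0.24 for the members. The largest differences were in CCNE1 (cyclin E1, ratio 1.98), GINS3 (2.01), POLE2 (1.96) and PCNA (1.603), all higher in shJAM3. Beyond counting error 21 of the 36 were higher and 11 lower, where 33.0% and 33.6% of measured genes were. Among the lower was E2F1, a transcription factor of S phase genes, named after its values were seen. E2F1 was at 132.0 FPKM in shControl against 84.7 in shJAM3 (ratio 0.641). Its GC content was 62.5%, and its log2 ratio went from -0.63 to -0.25 after GC centring. Whether the members' differences follow the share of cells in S phase was not tested.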

How the data were processed

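RNA from 2 A2780 libraries, shControl and shJAM3, was sequenced by the authors, and FPKM values per gene were deposited. Per the submitters' processing notes, the tools were HISAT2 2.0.5 and STAR, STAR-Fusion, fastp, GATK 4.1.1.0, featureCounts 1.5.0-p3, edgeR 3.22.5 and DESeq2 1.20.0, with no role or order given. No label names the build. All 58735 deposited identifiers, coordinates and exon lengths equalled those of GENCODE 29 (GRCh38).

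Multiplying FPKM by gene length and by a library size, recovered for each library, gave whole fragment numbers for 100% of values (tolerance 0.001 fragments). The library sizes behind the FPKM were 0.987 and 1.014 times the totals. Where several genes had the same symbol only the most abundant was used, which left out 1566. Intervals are exact conditional binomial (scipy 1.17.1); intervals of a balance between 2 genes are conditional odds ratio intervals. GC content is that of the longest transcript, in 20 bins. Scripts were tested on simulated data. All 37 members were named, with the 8 other pathway genes and 4 S phase genes of largest absolute log2 ratio, marker genes, overlapping genes and pseudogenes; 2 of those 8 are not reported here. The members and lists were chosen with earlier results of these data known.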

Additional observations from a re-analysis of the deposited data

How the results depend on the processing

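No replicate could be left out and no paired analysis was possible because each group had 1 library. The members' median log2 ratio lay between 0.18 and 0.24 under every alternative run. The count of members lower by log2 0.5 was 2 with a pseudocount of 0.1 FPKM, as NME2 passed too, and 0 without members sharing 10% or more of exon bases. That exclusion also took the count past 2-fold higher to 0, because RRM2 was left out. Members lower beyond counting error numbered 3 at a mean of at least 5 FPKM, 3 after GC centring and 2 without members sharing exon bases. Step medians moved with the filter and the exclusion for the nucleoside salvage kinases (0.090 at 5 FPKM and 0.090 without sharing members), and with the filter for the deoxynucleotide step (0.38). After GC centring they were 0.40 for PRPP supply, 0.38 for the AMP and GMP branches, 0.088 for mono- and diphosphate kinases and 0.29 for pool cleaning. Single members moved beyond counting error in 23 of 37 cases with GC centring, 6 with a change of sign among those measured, and in 2 with the pseudocount (RRM2 to 1.83, ADSL to -0.36). Both other scalings moved none beyond it. In alternatives chosen after seeing the data, leaving out the 5 members with 50% or more of coding bases shared gave a median of 0.19, and sums with same-strand genes moved 0 of 9 beyond counting error. Depth limits ADSL (41 and 32 fragments), NME2 (59 and 40) and JAM3 (18 and 14).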
